A study of Rattus norvegicus with 9 samples.

Results

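The 10 genes described here control the step at which a cell leaves the G1 phase and commits to copying its DNA. They are the D cyclins Ccnd1, Ccnd2 and Ccnd3, the kinases Cdk4 and Cdk6, the kinase inhibitors Cdkn1a (p21), Cdkn1b (p27) and Cdkn1c (p57), the retinoblastoma gene Rb1, and Mdm2, which encodes the ubiquitin ligase of p53. They were chosen by gene symbol and are 10 of the 18733 genes in the deposited tables. All 10 passed the filter on low counts and were among the 14840 genes tested. The samples were poly(A) RNA of male rat hippocampus in 3 groups of 3 libraries, 1 per animal. The taVNS rats had cognitive impairment after middle cerebral artery occlusion (MCAO), a surgical model of ischaemic stroke, and then received transcutaneous auricular vagus nerve stimulation, an electrical stimulation through the skin of the outer ear, for 14 days. The rats with post-stroke cognitive impairment (PSCI) had the same surgery and impairment and were fed normally for 2 weeks. The control rats were fed normally, and their labels name no surgery. The impaired rats were selected on 2 behavioural scores before they were randomised to taVNS or PSCI. The labels give no strain, age or hemisphere and name neither sham surgery nor sham stimulation. Surgery, impairment and their after-effects therefore cannot be told apart in the comparison of PSCI with control rats. Likewise, stimulation and the handling given with it cannot be told apart in the comparison of taVNS with PSCI rats.

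D cyclins are made in response to growth signals and bind CDK4 or CDK6. The active kinases phosphorylate the retinoblastoma protein, which then releases E2F transcription factors, and these switch on the genes of DNA synthesis. The CIP/KIP proteins p21, p27 and p57 bind cyclin and kinase complexes and restrain them. p53 raises transcription of the genes of p21 and MDM2 after DNA damage, and MDM2 in turn marks p53 for destruction. In the adult hippocampus most neurons have left the cell cycle for good, while glia can re-enter it after injury and progenitors of the dentate gyrus divide throughout life. D cyclins, p21 and p27 are also present in cells that do not divide, so their RNA is not a measure of division alone.

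Promoter windows from RefSeq (assembly GRCr8, a newer build than the mRatBN7.2 of the authors' tables) were available for 6 of the 10 genes, namely Cdkn1a, Cdkn1b, Mdm2, Cdk4, Ccnd3 and Rb1. The 250 bases before the annotated start are printed for 3 of them, chosen because the window holds a p53 match before the p21 gene or 3 or more matches to 1 motif. Each is written on the strand of its gene. Capitals mark a match to the p53 half-site in Cdkn1a (chr20:7150682-7150931, plus strand), the E-box CACGTG in Cdk4 (chr7:64771203-64771452, plus strand) and the GC box GGGCGG or its complement CCGCCC in Rb1 (chr15:54911858-54912107, minus strand).
Cdkn1a: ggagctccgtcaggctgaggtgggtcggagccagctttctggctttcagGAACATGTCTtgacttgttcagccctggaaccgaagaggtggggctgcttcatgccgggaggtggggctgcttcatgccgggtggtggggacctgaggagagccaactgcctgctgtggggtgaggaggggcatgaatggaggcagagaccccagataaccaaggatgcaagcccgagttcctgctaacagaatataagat
Cdk4: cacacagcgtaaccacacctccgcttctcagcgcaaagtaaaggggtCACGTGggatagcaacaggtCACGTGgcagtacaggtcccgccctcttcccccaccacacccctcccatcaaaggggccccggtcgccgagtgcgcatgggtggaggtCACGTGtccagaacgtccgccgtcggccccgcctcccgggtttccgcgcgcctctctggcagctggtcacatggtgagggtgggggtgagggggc
Rb1: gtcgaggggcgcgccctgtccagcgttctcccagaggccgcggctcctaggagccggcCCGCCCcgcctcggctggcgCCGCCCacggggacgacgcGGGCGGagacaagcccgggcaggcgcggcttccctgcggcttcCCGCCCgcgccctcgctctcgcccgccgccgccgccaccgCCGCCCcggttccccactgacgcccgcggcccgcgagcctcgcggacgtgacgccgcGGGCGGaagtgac
The p53 half-site GAACATGTCT began 201 bases before the start of Cdkn1a, and the 10 bases that follow it, TGACTTGTTC, matched the same pattern at 9 of 10 positions. Over both strands, the p53 half-site was found in 6.64% of 33469 promoter windows of this length. The 3 E-boxes of Cdk4 began 203, 183 and 95 bases before its start, and 5.59% of windows held at least 1 E-box. Rb1 had 6 GC boxes, a motif present in 30.5% of windows, and also 1 p53 half-site at 147 bases before its start. The window of Mdm2 held no p53 half-site and 2 GC boxes, Ccnd3 held 2 GC boxes, and Cdkn1b and Cdk4 held 1 each. The E2F motif, searched as TTTCCCGC or TTTCGCGC, was present in 1.04% of windows and in none of these 6. These matches describe letters in the windows and say nothing of binding.

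Sequencing depth was close across the libraries, at 13747389 to 15415694 counts, so 3 counts, the limit that a count of 0 allows, were worth 0.195 to 0.218 CPM (counts scaled to a common library size). Levels below are CPM with library sizes adjusted by edgeR's TMM factors, and fold changes were tested with edgeR's quasi-likelihood test across all 14840 genes, with Benjamini-Hochberg adjustment and a call at an adjusted p under 0.05. The neuronal genes Prox1 (7.07 to 47.6 CPM) and Neurod6 (46.6 to 225 CPM), which mark granule and pyramidal neurons, were present in every library. Both lowest levels were those of PSCI replicate 2. In the other libraries Prox1 was at least 21.2 CPM and Neurod6 at least 127 CPM. In bulk tissue, fewer cells of a type and less RNA per cell cannot be told apart. The libraries of the PSCI group differed among themselves in makeup. Replicate 2 of PSCI had the highest summed CPM of the 9 markers of dividing cells in its group (173, 499 and 273 CPM in replicates 1, 2 and 3) and the lowest sum of the 8 neuronal markers (9035, 4919 and 8017 CPM). Gad1, on the same neuronal list, went the other way and was highest in replicate 2 (141, 208.6 and 183.9 CPM). Replicate 2 also had the lowest sum of the 5 oligodendrocyte markers (12650, 4402 and 12580 CPM). Its meningeal sum was the highest (56.7, 218 and 68.7 CPM). Replicate 3 of taVNS had a meningeal marker sum of 331.5 CPM, against 49.1 and 65.1 CPM in the other taVNS rats, 56.7 to 218 CPM in PSCI rats and 56.7 to 88.4 CPM in control rats.

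In taVNS rats, 3 of the 10 genes fell relative to PSCI rats: Ccnd1, Cdkn1a and Rb1. In PSCI rats, Ccnd1 and Rb1 rose relative to control rats. None of the 10 passed the test between taVNS and control rats. The share of all genes called was 5.75% for taVNS against PSCI (854 genes, 4.91% of those tested being lower) and 9.85% for PSCI against control (1461 genes, 7.71% being higher), so 3 of 10 lower and 2 of 10 higher stood against these shares. The median log2 fold change of the 10 genes was -0.46 for taVNS against PSCI and 0.43 for PSCI against control, while that of all tested genes was 0.00 in each. The 10 genes were chosen with earlier results of these data known, so these contrasts with all genes are a description and not an independent test. Both comparisons use the same 3 PSCI libraries, so opposite signs in them are not independent of each other. Each of the 2 counts changed by more than 1.5 times when single libraries were left out. For taVNS against PSCI it was 0 without taVNS replicate 1, and 1 without taVNS replicate 2, taVNS replicate 3, PSCI replicate 3 or control replicate 1. For PSCI against control it was 0 without PSCI replicate 3, control replicate 1 or control replicate 3, 1 without PSCI replicate 2, control replicate 2 or any 1 of the taVNS replicates, and 5 without PSCI replicate 1.

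**Figure D1:**
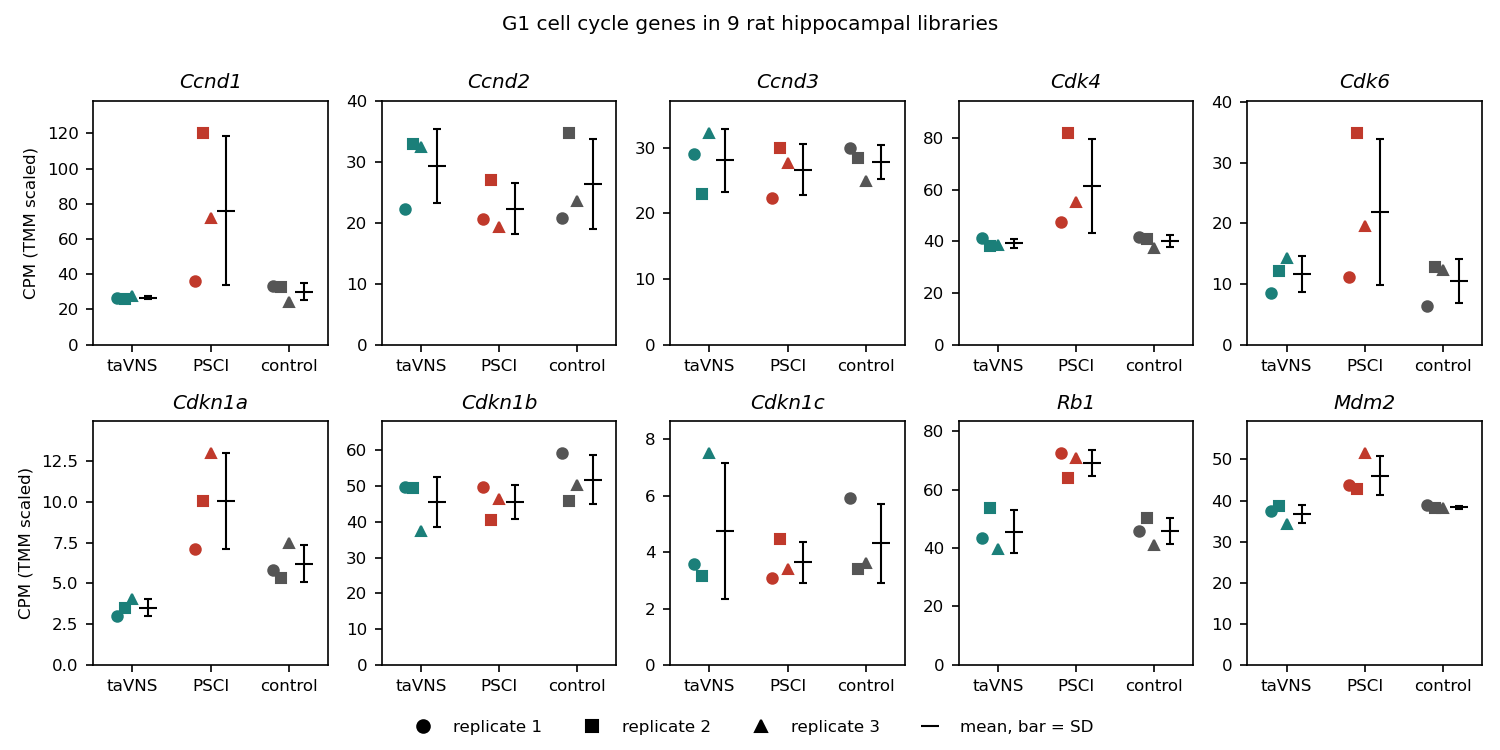
Level of each of the 10 genes (vertical axes, TMM-scaled CPM, each from 0) in taVNS, PSCI and control rats; points are single libraries, shaped by replicate number, and the bar beside them is the mean with its SD. The PSCI points of Ccnd1 run from 36.1 to 120.3 CPM, all above the 6 other libraries, while the points of Ccnd3 and Cdkn1b mix across the groups.

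Among the D cyclins, Ccnd1, the cyclin most often raised by mitogens, had 26.6, 25.7 and 27.5 CPM in taVNS rats, 36.1, 120.3 and 72.1 CPM in PSCI rats and 33.3, 32.5 and 24.5 CPM in control rats. Every PSCI library lay above every taVNS and every control library, and the lowest PSCI library was 36.1 CPM against a highest control library of 33.3 CPM. The means were 26.6 ± 0.931 CPM in taVNS, 76.2 ± 42.3 CPM in PSCI and 30.1 ± 4.90 CPM in control rats (SD, n = 3 each). Ccnd1 fell 2.87-fold in taVNS against PSCI rats (log2 fold change -1.52 ± 0.35 SE, edgeR adjusted p = 0.0406). It rose 2.53-fold in PSCI against control rats (1.34 ± 0.35, edgeR adjusted p = 0.0443). Neither call held when any 1 library other than PSCI replicate 1 was left out: the edgeR adjusted p then reached 0.0559 to 0.1405 for taVNS against PSCI and 0.062 to 0.1506 for PSCI against control. Without PSCI replicate 2, whose Ccnd1 level was 3.34 times that of PSCI replicate 1, the log2 fold changes were -1.03 (edgeR adjusted p = 0.0564) and 0.84 (edgeR adjusted p = 0.0754).

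The other D cyclins did not pass the test in any comparison. Ccnd2, the cyclin needed for division of hippocampal progenitors in adult mice, had 22.4, 33.1 and 32.6 CPM in taVNS rats, 20.7, 27.2 and 19.3 CPM in PSCI rats and 20.8, 34.9 and 23.7 CPM in control rats. Its groups overlapped in all 3 comparisons, with a log2 fold change of 0.39 ± 0.23 for taVNS against PSCI (edgeR adjusted p = 0.37) and -0.24 ± 0.23 for PSCI against control (edgeR adjusted p = 0.571). Ccnd3, a D cyclin found in many tissues, averaged 28.0 ± 4.76 CPM in taVNS, 26.6 ± 3.87 CPM in PSCI and 27.8 ± 2.57 CPM in control rats (SD, n = 3 each). Its libraries ran from 22.4 to 32.2 CPM over all groups.

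The makeup of the D cyclin RNA was also compared per length. On the scale of RPKM, a read measure corrected for gene length and library depth, Ccnd1 made up 16.8, 14.6 and 14.2% of the summed D cyclins in taVNS rats, 24.6, 44.9 and 37.7% in PSCI rats and 20.8, 15.9 and 16.4% in control rats. The PSCI shares lay above all others. Ccnd2 was the larger part outside PSCI, with a mean share of 51.1 ± 7.09% in taVNS rats, 35.5 ± 7.07% in PSCI rats and 47.4 ± 6.44% in control rats (SD, n = 3 each). The summed D cyclin level was 50.1 ± 5.64 RPKM in taVNS, 58.5 ± 19.9 RPKM in PSCI and 47.6 ± 8.22 RPKM in control rats (SD, n = 3 each). For the Ccnd1 share, the exact two-sided permutation p was 0.1 for taVNS against PSCI and 0.1 for PSCI against control, the smallest that 3 against 3 can give. It was 0.3 for taVNS against control. Over the 24 share comparisons made, the smallest adjusted exact permutation p was 0.48.

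**Figure D2:**
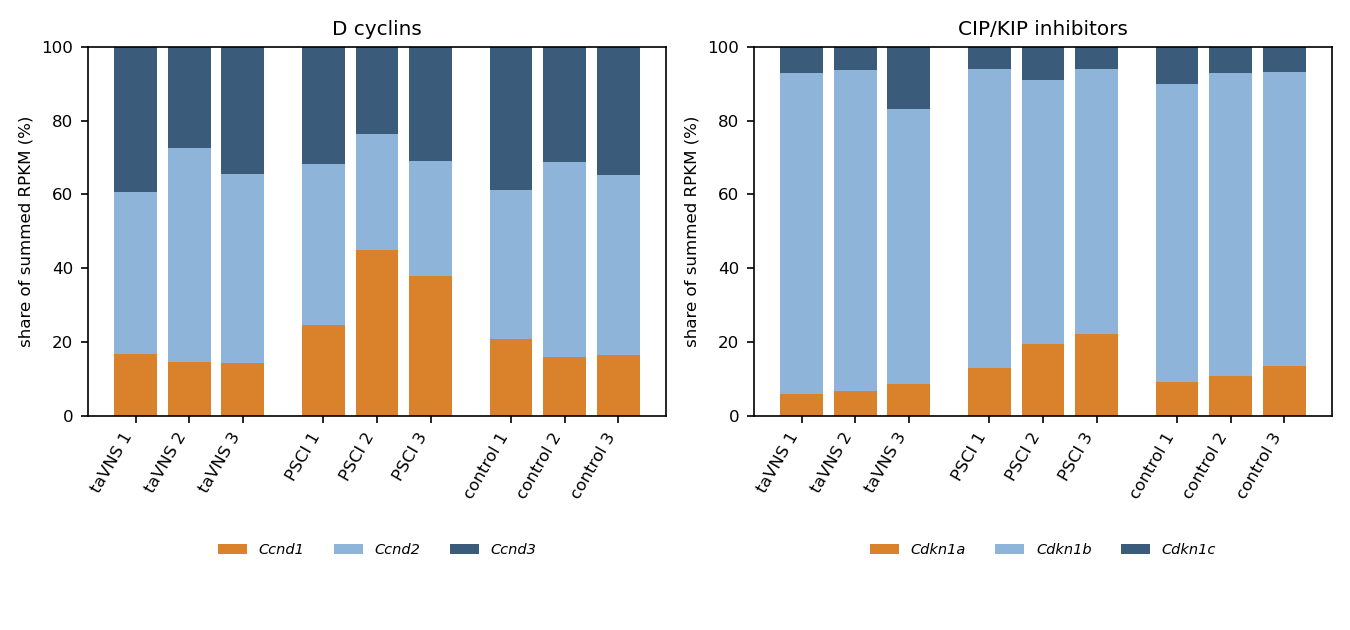
Share of the summed RPKM (vertical axes, %) taken by each D cyclin (left) and each CIP/KIP inhibitor (right) in every library of the taVNS, PSCI and control groups. The Ccnd1 share is 24.6 to 44.9% in PSCI rats, above the 14.2 to 16.8% of taVNS rats and the 15.9 to 20.8% of control rats, and the Cdkn1a share is lowest in taVNS rats.

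The kinases that D cyclins activate did not pass the test, but Cdk4 lay near its threshold. Cdk4 had 41.1, 38.1 and 38.5 CPM in taVNS rats, 47.4, 82.1 and 55.3 CPM in PSCI rats and 41.9, 40.9 and 37.5 CPM in control rats. No PSCI library overlapped with either other group. The log2 fold change was -0.65 ± 0.18 for taVNS against PSCI (edgeR adjusted p = 0.0705) and 0.62 ± 0.18 for PSCI against control (edgeR adjusted p = 0.0611). Without PSCI replicate 1 both passed, at -0.81 (edgeR adjusted p = 0.0131) and 0.78 (edgeR adjusted p = 0.0128), and DESeq2 called both with all libraries. Cdk6, the partner kinase, had 8.55, 12.1 and 14.4 CPM in taVNS rats, 11.2, 34.9 and 19.5 CPM in PSCI rats and 6.35, 12.8 and 12.3 CPM in control rats. Replicate 1 of PSCI lay within the range of both other groups, and the edgeR adjusted p was 0.247 for taVNS against PSCI and 0.147 for PSCI against control. Without PSCI replicate 1, Cdk6 passed for PSCI against control (log2 fold change 1.38, edgeR adjusted p = 0.0334). Per length Cdk6 was the minor kinase, with a mean of 3.12 ± 0.876% of the summed RPKM of both in taVNS rats, 3.55 ± 0.999% in PSCI rats and 2.75 ± 1.01% in control rats (SD, n = 3 each).

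Cdkn1a, the gene of p21 and a classical p53 target, was the CIP/KIP inhibitor that differed. It had 3.01, 3.50 and 4.03 CPM in taVNS rats, 7.09, 10.1 and 13.0 CPM in PSCI rats and 5.80, 5.31 and 7.49 CPM in control rats. The taVNS libraries lay below all 6 others, while the lowest PSCI library lay below the highest control library. These levels rest on 43 to 59 counts per taVNS library and 104 to 199 counts per PSCI library. Cdkn1a fell 2.86-fold in taVNS against PSCI rats (log2 fold change -1.51 ± 0.26 SE, edgeR adjusted p = 0.0135). The call was lost without taVNS replicate 1 (edgeR adjusted p = 0.0726) or taVNS replicate 2 (edgeR adjusted p = 0.0572). For PSCI against control the log2 fold change was 0.70 ± 0.25 and did not pass (edgeR adjusted p = 0.116), except without PSCI replicate 1 (0.89, edgeR adjusted p = 0.0293). For taVNS against control it was -0.82 ± 0.26, with an unadjusted edgeR p of 0.0108 and an adjusted p of 0.9999.

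The other CIP/KIP inhibitors gave no call. Cdkn1b, the gene of p27 and a brake on division in resting cells, had 49.8, 49.4 and 37.5 CPM in taVNS rats, 49.8, 40.5 and 46.5 CPM in PSCI rats and 59.3, 45.8 and 50.4 CPM in control rats. Its log2 fold change was 0.00 ± 0.15 for taVNS against PSCI and -0.18 ± 0.15 for PSCI against control, and all 3 groups overlapped. Cdkn1c, the gene of p57, had 3.57, 3.15 and 7.51 CPM in taVNS rats, 3.07, 4.46 and 3.39 CPM in PSCI rats and 5.94, 3.40 and 3.60 CPM in control rats. The highest library was taVNS replicate 3, the one with the high meningeal marker sum, and without it the log2 fold change for taVNS against PSCI was -0.10 in place of 0.38. The part of meningeal tissue in that level was not tested.

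Per length, p27 RNA made up most of the CIP/KIP total in every group. The Cdkn1b share was 82.9 ± 7.31% in taVNS rats, 75.0 ± 5.32% in PSCI rats and 81.0 ± 1.23% in control rats (SD, n = 3 each). The Cdkn1a share was 5.82, 6.63 and 8.64% in taVNS rats, 13.0, 19.3 and 22.0% in PSCI rats and 9.19, 10.8 and 13.4% in control rats. Every taVNS share lay below every share of the other groups, with an exact two-sided permutation p of 0.1 against PSCI and 0.1 against control, the smallest possible here. PSCI and control shares overlapped slightly (exact permutation p = 0.2). The summed CIP/KIP level was 29.2 ± 1.54 RPKM in taVNS, 32.5 ± 1.44 RPKM in PSCI and 32.0 ± 3.63 RPKM in control rats (SD, n = 3 each).

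Rb1, the pocket protein that D cyclin kinases inactivate, showed the tightest PSCI group of the 10 genes. It had 43.6, 53.8 and 39.6 CPM in taVNS rats, 72.5, 63.9 and 70.9 CPM in PSCI rats and 46.0, 50.4 and 41.2 CPM in control rats. All PSCI libraries lay above all 6 others, and the coefficient of variation in PSCI was 6.61% for Rb1 against 55.5% for Ccnd1. Rb1 fell 1.51-fold in taVNS against PSCI rats (log2 fold change -0.60 ± 0.13 SE, edgeR adjusted p = 0.0315) and rose 1.51-fold in PSCI against control rats (0.59 ± 0.13, edgeR adjusted p = 0.0218). The call for taVNS against PSCI was lost without taVNS replicate 1 (edgeR adjusted p = 0.148), taVNS replicate 3 (0.124), PSCI replicate 3 (0.0994) or control replicate 1 (0.0502). The call for PSCI against control was lost without PSCI replicate 3 (edgeR adjusted p = 0.0705), control replicate 1 (0.063) or control replicate 3 (0.106). Unlike for Ccnd1, leaving out PSCI replicate 2 ended neither call.

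Mdm2, the ubiquitin ligase of p53 and itself a p53 target, had 37.4, 38.7 and 34.4 CPM in taVNS rats, 43.8, 42.8 and 51.6 CPM in PSCI rats and 38.9, 38.1 and 38.2 CPM in control rats. No PSCI library overlapped with either other group, but the differences did not pass the test. The log2 fold change was -0.32 ± 0.10 for taVNS against PSCI (edgeR adjusted p = 0.0963) and 0.26 ± 0.10 for PSCI against control (edgeR adjusted p = 0.134). The control libraries differed by less than 1 CPM.

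In all, 5 of the 10 genes had taVNS libraries wholly below the PSCI libraries (Ccnd1, Cdk4, Cdkn1a, Rb1 and Mdm2), and 15.2% of all tested genes did, out of 25.9% whose groups did not overlap in either direction. PSCI libraries lay wholly above control libraries for 4 of the 10 (Ccnd1, Cdk4, Rb1 and Mdm2), and 16.2% of all tested genes did, out of 27.4% in either direction. At an unadjusted p under 0.05, edgeR passed 5 of the 10 genes for taVNS against PSCI (21.1% of all genes) and 6 of the 10 for PSCI against control (25.3% of all genes).

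**Figure D3:**
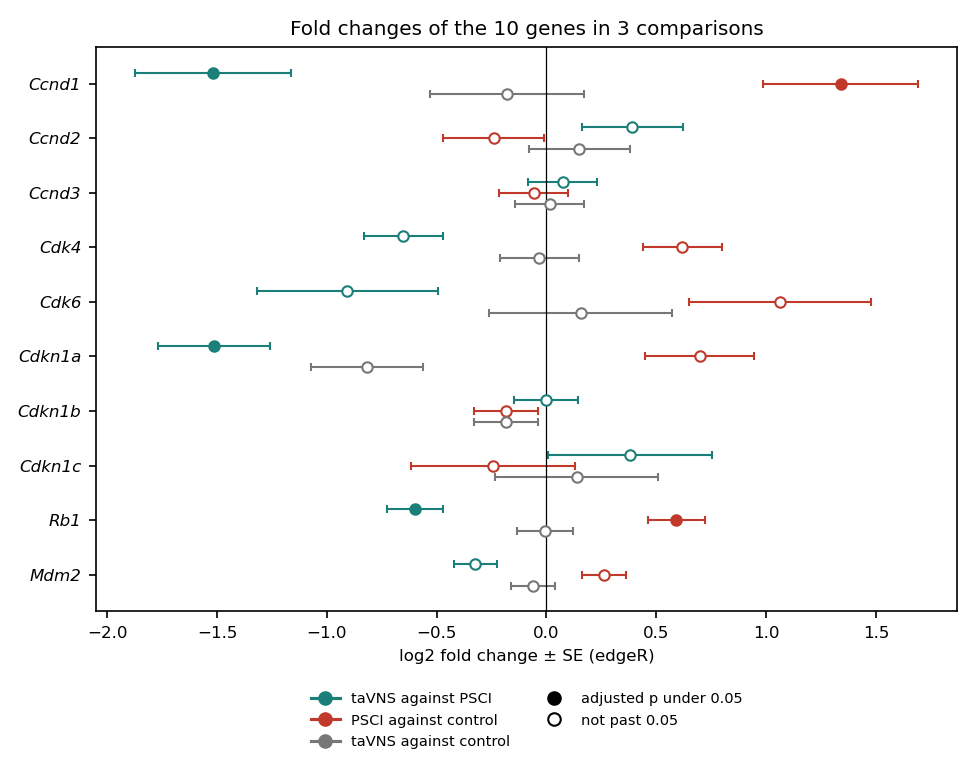
edgeR log2 fold changes (horizontal axis) with their SE for the 10 genes (vertical axis) in the 3 comparisons; filled points passed an adjusted p of 0.05. Ccnd1 and Rb1 have filled points in both comparisons with PSCI, at -1.52 and -0.60 for taVNS against PSCI and at 1.34 and 0.59 for PSCI against control, and every point of taVNS against control is open.

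Between taVNS and control rats, edgeR called 0 of the 14840 genes and 0 of the 10 (0.0% of all genes). At an unadjusted p under 0.05 there were 557 genes (3.75%), of which Cdkn1a was 1, and DESeq2 called 9 genes, none of them among the 10. Cdkn1a was also the member whose taVNS and control libraries did not overlap, and 11.1% of all tested genes had groups that did not overlap in this comparison (5.74% higher and 5.4% lower in taVNS rats). For Ccnd1 the log2 fold change was -0.18 ± 0.35, for Cdk4 -0.03 ± 0.18, for Rb1 -0.01 ± 0.13 and for Mdm2 -0.06 ± 0.10. A p that missed the threshold does not show equal levels.

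Within the PSCI group, the 10 genes did not share 1 order of libraries. Replicate 2 was the highest PSCI library for Ccnd1, Ccnd2, Ccnd3, Cdk4, Cdk6 and Cdkn1c. Replicate 3 was the highest for the p53 targets Cdkn1a (1.83 times the lowest) and Mdm2 (1.2 times), and replicate 1 for Rb1 (1.14 times) and Cdkn1b (1.23 times). For Ccnd1, which passed, and for Cdk4, Cdk6, Ccnd3 and Cdkn1c, which passed in no comparison, the order was replicate 2, then 3, then 1. This was also the order of the summed markers of dividing cells, of microglia and macrophages (465, 729 and 577 CPM in replicates 1, 2 and 3) and of astrocytes (7936, 12070 and 10450 CPM). Gfap (4095, 7672 and 6553 CPM), a gene of reactive astrocytes, made up most of the astrocyte sum, whereas Aldh1l1, Slc1a2 and Aldoc, other astrocyte genes, were highest in replicate 1. The first principal component of log2 CPM over all tested genes, the main axis of difference between libraries, held 48.2% of the variance. It ranked the PSCI libraries in that same order, at 19.7, 74.9 and 52.8 in replicates 1, 2 and 3. The order was therefore not particular to these genes, and the share of all genes that had it was not counted. All 9 markers of dividing cells fell in taVNS against PSCI rats and all 9 rose in PSCI against control rats. Their summed level was 53.9 to 67.6 CPM in taVNS rats, 173 to 499 CPM in PSCI rats and 56.8 to 61.4 CPM in control rats. Of 9 markers of microglia and macrophages, 4 fell and 1 rose in taVNS against PSCI rats and 7 rose in PSCI against control rats. Their sum was 271 to 343 CPM in taVNS rats, 465 to 729 CPM in PSCI rats and 185 to 252 CPM in control rats. Of 8 astrocyte markers, 3 fell in taVNS against PSCI rats and 3 rose in PSCI against control rats, with sums of 3491 to 4276 CPM in taVNS rats, 7936 to 12070 CPM in PSCI rats and 3104 to 4368 CPM in control rats. Of all tested genes, 4.91% fell and 0.842% rose in taVNS against PSCI rats, and 7.71% rose in PSCI against control rats. PSCI libraries lay wholly above control libraries for 7 microglial and 4 astrocyte markers, and wholly below for 1 of each. The lower ones were Tmem119 (11.8 to 14.9 against 16.0 to 22.8 CPM) and Aldoc (450 to 668 against 706 to 923 CPM). None of the 8 neuronal markers passed in either comparison, and no marker of these 4 lists was at 0 in a whole group. The part of these cell types in the levels of the 10 genes was not tested.

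**Figure D4:**
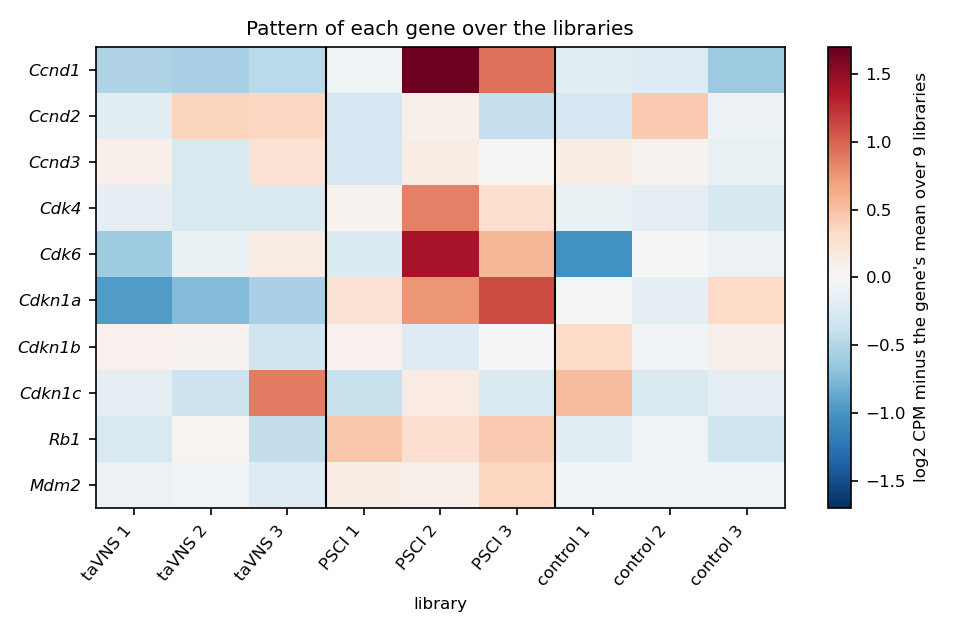
Each gene's log2 CPM minus its own mean over the 9 libraries (colour), with genes down the page and the taVNS, PSCI and control libraries from left to right. Ccnd1 and Cdk6 are darkest in PSCI replicate 2, Cdkn1a is darkest red in PSCI replicate 3 and blue in the taVNS libraries, and Rb1 is above its mean in all 3 PSCI libraries.

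The genes whose centred log2 CPM was closest to that of Ccnd1 over the 9 libraries, by root mean square difference, were Fgfrl1, a receptor-like protein that binds fibroblast growth factors (0.15), Ezh2, the histone methyltransferase of the Polycomb complex (0.16), and Cd63, a tetraspanin of late endosomes (0.163). Their mean levels in taVNS, PSCI and control rats were 11.6, 29.6 and 12.6 CPM for Fgfrl1. For Ezh2 they were 7.08, 17.3 and 6.23 CPM, and for Cd63 68.7, 177 and 62.0 CPM. The closest to Rb1 were Mmgt2, annotated as a membrane magnesium transporter (0.099), Apeh, a peptidase that removes acylated residues (0.102), and Igsf11, an adhesion protein of the immunoglobulin superfamily (0.106). Igsf11 averaged 86.9 CPM in taVNS, 140.0 CPM in PSCI and 87.4 CPM in control rats. These genes were picked for their likeness, so their levels are a description.

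Around the 10 genes, the other genes of the G1 to S step followed the same directions where they passed. Of 23 partners, 4 fell and 0 rose in taVNS against PSCI rats (4.91% of all genes fell), and 6 rose and 0 fell in PSCI against control rats (7.71% of all genes rose). The medians of the list were -0.36 and 0.30 on the log2 scale, beside 0.00 for all genes. Ccna2, the cyclin of S phase, averaged 0.671 ± 0.0371 CPM in taVNS, 15.1 ± 11.5 CPM in PSCI and 0.782 ± 0.190 CPM in control rats (SD, n = 3 each). It fell by 4.47 on the log2 scale in taVNS against PSCI rats (edgeR adjusted p = 0.00571) and rose by 4.26 in PSCI against control rats (edgeR adjusted p = 0.00428). Without PSCI replicate 2 these changes were smaller, at -3.72 and 3.50, and both still passed, while with limma-voom neither did (adjusted p = 0.125 and 0.0545). E2f7 and E2f8, repressors among the E2F factors, moved likewise. E2f7 fell by 3.11 (edgeR adjusted p = 0.0242) in taVNS against PSCI rats and rose by 3.74 (edgeR adjusted p = 0.00987) in PSCI against control rats. E2f8 had 1, 0 and 5 counts in taVNS rats, 29, 105 and 50 counts in PSCI rats and 0 counts in each control rat. With the control group set at 3 counts over the group, the summed E2f8 level was 58.5-fold higher in PSCI than in control rats. The lower 95% limit of the ratio, from counting error in the summed counts, was 47.1-fold. Neither value covers the spread between rats. E2f8 fell by 4.76 on the log2 scale in taVNS against PSCI rats (edgeR adjusted p = 0.0263).

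Rbl1, the pocket protein p107 related to Rb1, averaged 4.88 ± 1.27 CPM in taVNS, 16.5 ± 7.85 CPM in PSCI and 4.10 ± 1.42 CPM in control rats (SD, n = 3 each). It fell by 1.76 in taVNS against PSCI rats (edgeR adjusted p = 0.0332) and rose by 2.01 in PSCI against control rats (edgeR adjusted p = 0.0141). E2f1, an activating E2F, and Tfdp1, the dimer partner of E2F factors, also rose in PSCI against control rats, by 1.61 (edgeR adjusted p = 0.0304) and 0.30 (edgeR adjusted p = 0.0356), and the call of Tfdp1 was lost without any 1 of the 9 libraries (edgeR adjusted p 0.0531 to 0.141). Of the 3 INK4 inhibitors tested, which block CDK4 and CDK6 directly, 1 passed in each comparison with PSCI. Beside it, 4.91% of all genes fell in taVNS against PSCI rats and 7.71% rose in PSCI against control rats. The INK4 gene that passed was Cdkn2c (p18). Its libraries had 2.59, 1.75 and 2.46 CPM in taVNS rats, 3.75, 16.8 and 8.75 CPM in PSCI rats and 2.55, 2.05 and 2.13 CPM in control rats, and the order of its PSCI libraries was that of Ccnd1. Cdkn2c fell by 2.11 in taVNS against PSCI rats (edgeR adjusted p = 0.0359) and rose by 2.12 in PSCI against control rats (edgeR adjusted p = 0.0241), and without PSCI replicate 2 the changes were -1.46 (edgeR adjusted p = 0.0573) and 1.47. Cdkn2a, the remaining INK4 gene, had 2, 5 and 3 counts in total in the taVNS, PSCI and control groups and was not tested. Calls of several of these genes were lost when 1 library was left out, and some also with limma-voom or other settings: for taVNS against PSCI, Rbl1 kept its call in 6 of 18 alternatives, Cdkn2c in 4, E2f7 in 9 and E2f8 in 12. For taVNS against PSCI, that held for Rbl1 without taVNS replicates 1, 2 or 3, PSCI replicates 2 or 3 or control replicate 2 (edgeR adjusted p 0.0569 to 0.115), for E2f7 without a taVNS replicate or PSCI replicate 3 (0.0655 to 0.0774), for E2f8 without taVNS replicate 1 or 2 or PSCI replicate 3 (0.0657 to 0.12) and for Cdkn2c without any 1 library other than PSCI replicate 1 (0.0563 to 0.123). E2f8 was -6.49 without taVNS replicate 3. For PSCI against control, it held for Rbl1 without control replicate 2 (edgeR adjusted p = 0.0511), for E2f1 without PSCI replicate 2 or 3 or control replicate 2 or 3 (0.0671 to 0.116) and for Cdkn2c without PSCI replicate 3 or any 1 control library (0.0562 to 0.0921).

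Genes of the p53 pathway outside the 10 moved in part. Among the regulators of p53, Chek2 passed in both comparisons with PSCI and Atm in PSCI against control. Over all genes, 4.91% fell in taVNS against PSCI rats and 7.71% rose in PSCI against control rats. Chek2, a kinase of the DNA damage checkpoint, averaged 1.46 ± 0.088 CPM in taVNS, 5.07 ± 1.36 CPM in PSCI and 1.01 ± 0.258 CPM in control rats (SD, n = 3 each). It fell by 1.79 (edgeR adjusted p = 0.0107) in taVNS against PSCI rats and rose by 2.31 (edgeR adjusted p = 0.00302) in PSCI against control rats. Atm, a kinase that senses DNA breaks, rose by 0.43 in PSCI against control rats (edgeR adjusted p = 0.0437). Atm lost its call without any 1 library other than PSCI replicate 2 (edgeR adjusted p 0.0511 to 0.176). Ppm1d and Mdm4, also on this list, did not pass and went the other way. The PSCI libraries of Ppm1d lay wholly below the control libraries (log2 fold change -0.36, edgeR adjusted p = 0.0625). The taVNS libraries of Mdm4 lay wholly above the PSCI libraries (0.29, edgeR adjusted p = 0.172).

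Of 23 other p53 targets tested, 3 fell in taVNS against PSCI rats, beside 4.91% of all genes, and 3 rose in PSCI against control rats, beside 7.71% of all genes, and the list medians were -0.08 and 0.09. The 3 genes were Bax, Gadd45a and Fas in both comparisons. Bax, which opens the outer mitochondrial membrane in apoptosis, had 24.8, 21.8 and 21.1 CPM in taVNS rats, 102.6, 107.9 and 99.2 CPM in PSCI rats and 23.8, 22.0 and 18.4 CPM in control rats. The PSCI libraries were closely spaced and far above the others. Bax fell by 2.19 on the log2 scale in taVNS against PSCI rats (edgeR adjusted p = 2.2e-05) and rose by 2.27 in PSCI against control rats (edgeR adjusted p = 1.5e-05), and it passed under all 18 alternatives in both. In PSCI rats its counts stood 0.369 higher on the log2 scale than its RPKM would give, and the log2 fold change for PSCI against control was 1.92 on log2(RPKM + 1). The size of this gap in single libraries reached 0.462 for Bax and at most 0.091 among the 10 genes.

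Gadd45a, a stress gene that slows the cell cycle, averaged 4.70 ± 0.608 CPM in taVNS, 16.3 ± 4.80 CPM in PSCI and 5.18 ± 1.95 CPM in control rats (SD, n = 3 each). It fell by 1.79 in taVNS against PSCI rats (edgeR adjusted p = 0.014) and rose by 1.65 in PSCI against control rats (edgeR adjusted p = 0.0114). Fas, a death receptor, had 6 to 14 counts per library in taVNS rats, 27 to 72 counts in PSCI rats and 8 to 11 counts in control rats, and fell by 2.18 (edgeR adjusted p = 0.0232) and rose by 2.14 (edgeR adjusted p = 0.0166) in the same comparisons. In all of these lists no gene passed in the direction opposite to those named, and no gene of them passed between taVNS and control rats. Opposite calls were few over all genes too, with 0.842% higher in taVNS against PSCI rats and 2.14% lower in PSCI against control rats. Of the 23 other p53 targets, 4 had PSCI libraries wholly above the control libraries and 4 wholly below (16.2% and 11.3% of all genes). Their taVNS libraries lay wholly below the PSCI libraries for 5 and wholly above for 2 (15.2% and 10.6% of all genes). Leaving out 1 library ended calls of several of the genes named here. For taVNS against PSCI, that happened to Chek2 without taVNS replicate 1 or 2, to Gadd45a without any 1 of the taVNS replicates, to Fas without taVNS replicate 1 or 2 or PSCI replicate 3 (edgeR adjusted p 0.0505 to 0.102 for these 3 genes). For PSCI against control, it happened to Gadd45a without control replicate 3 (edgeR adjusted p = 0.0581) and to Fas without any 1 control library (0.0569 to 0.0634).

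**Figure D5:**
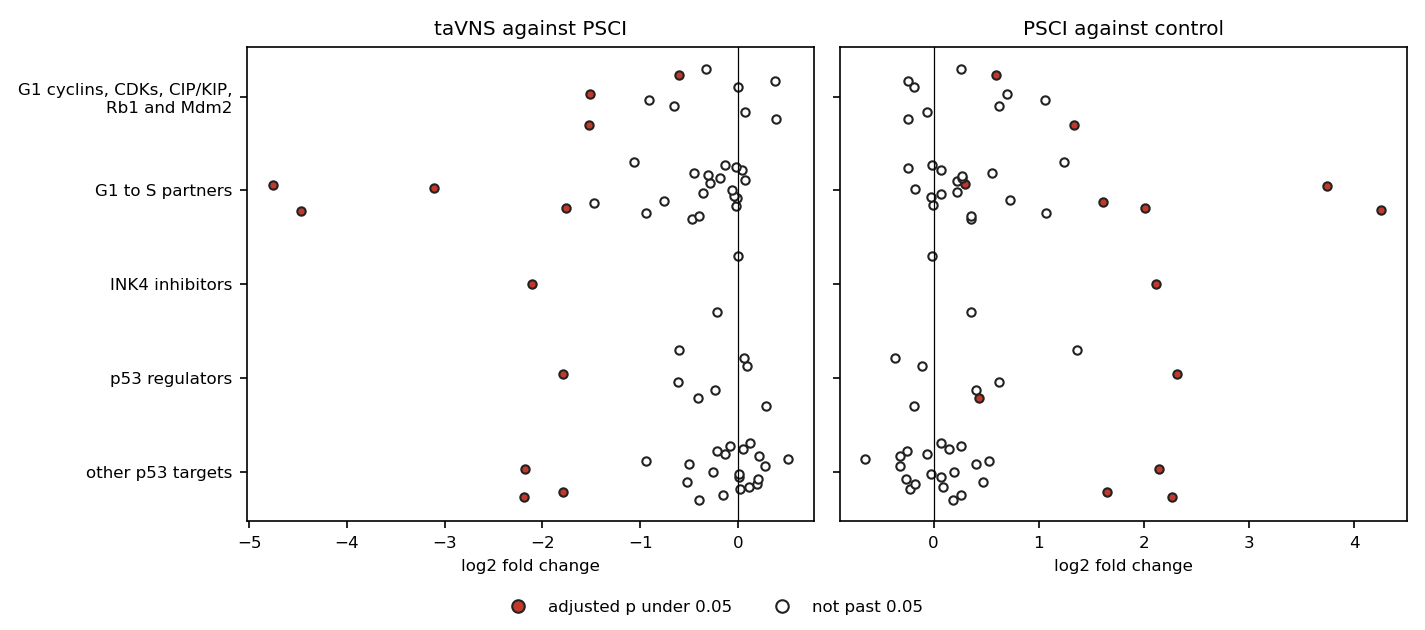
edgeR log2 fold changes (horizontal axes) of tested genes of the 5 pathway lists (rows) for taVNS against PSCI (left) and PSCI against control (right); filled points passed an adjusted p of 0.05, and E2f8 is left out on the right because it had 0 counts in control rats. The filled points all lie below 0 on the left and above 0 on the right, and most genes of the other p53 targets cluster around 0.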

How the data were processed

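The authors deposited, for each library, a table of expected counts per gene, not scaled for depth or length, and a table of RPKM with 2 decimals. Per the labels' protocols, RNA was poly(A)-selected and the second strand was made with dUTP. Per the submitters' processing notes, HISAT2 2.0.4, RSEM 1.2.8 and mRatBN7.2 were used. The role of each tool and the annotation are not given in the sources used here. Expected counts were rounded to whole numbers. Genes were filtered with filterByExpr (14840 of 18733 kept), scaled by TMM and fitted in 1 model over all 9 libraries with edgeR 4.0.16 (quasi-likelihood F test, 6 residual degrees of freedom, R 4.3.3). P-values were adjusted by Benjamini-Hochberg over all genes, and a call is an adjusted p under 0.05. The SE beside an edgeR log2 fold change is not a direct output of the fit. It is the size of the change divided by the square root of the F statistic. Alternatives used DESeq2 1.42.0, limma 3.58.1 (voom, or log2 RPKM plus 0.1 or 1), other filters and scaling, a replicate block and fewer libraries. Shares were computed from RPKM and compared by an exact permutation test. Group labels are the submitters'. The edgeR p-values weigh a change against the spread between single rats, estimated over all 3 groups in the main fit. For Ccnd1 the coefficient of variation was 3.50% in taVNS, 55.5% in PSCI and 16.3% in control rats. With only the 2 groups compared, its edgeR adjusted p was 0.109 for taVNS against PSCI and 0.110 for PSCI against control. The floor of 3 counts covers counting error only.

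The 10 genes and all lists were chosen with earlier results of these data known. All 10 are named in every comparison. Genes of the pathway lists are named where they were called, at most 8 per list, and 1 gene of these lists is not reported here. The 3 genes most alike to each gene called in PSCI against control needed a mean of at least 1 CPM. Genes named in the closing paragraph on single libraries, and Ppm1d and Mdm4, were chosen after their values were seen. Promoter windows are from RefSeq (GRCr8), where 18486 of the gene identifiers were found, and no protein sequence was used.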

Additional observations from a re-analysis of the deposited data

How the results depend on the processing

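The number of genes called for taVNS against PSCI was 854, and it was 1550 with DESeq2, 231 with limma-voom, 518 with the replicate block, 249 with only the 2 groups compared and 359 without PSCI replicate 2 and taVNS replicate 3, a setting chosen after seeing the data. Leaving out 1 library gave 175 (without taVNS replicate 1) to 1633 (without PSCI replicate 1). Of the 10 genes, 3 were called, and 1 with limma-voom, 1 with the replicate block, 0 with only the 2 groups, 1 without both named libraries, and 0 to 4 without 1 library. For PSCI against control, 1461 genes were called, 2257 with DESeq2, 797 with only the 2 groups, and 553 (without control replicate 3) to 2182 (without PSCI replicate 1) without 1 library. Of the 10 genes 2 were called, and 1 each with limma-voom, log2 RPKM plus 0.1, log2 RPKM plus 1, only the 2 groups and without both named libraries, and 0 to 5 without 1 library. For taVNS against control the count of 0 genes became 9 with DESeq2, 1 without both named libraries and 0 to 1 without 1 library. Deviations from group means correlated at -0.468 to 0.255 between same-numbered libraries and at -0.388 to 0.458 between libraries of different number. With 3 libraries per group these ranges cannot settle whether the numbers pair the rats. The main fit had no block because same numbers in different groups are different rats. With the replicate block, PSCI against control had 1084 genes and 2 of the 10 (Rb1 and Cdk6).

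By gene, Ccnd1 kept its call in 4 of 18 alternatives in each comparison with PSCI, Rb1 in 10 of 18 for taVNS against PSCI and 15 of 18 for PSCI against control, and Cdkn1a in 15 of 18 for taVNS against PSCI. Of the pathway genes, for taVNS against PSCI, Ccna2 kept its call in 17, Chek2 in 14, Gadd45a in 13, E2f8 and Fas in 12, E2f7 in 9, Rbl1 in 6 and Cdkn2c in 4 of 18. In PSCI against control rats, E2f7, E2f8 and Chek2 kept it in 18, Ccna2, Rbl1 and Gadd45a in 17, Fas in 15, E2f1 in 14, Cdkn2c in 10, Tfdp1 in 5 and Atm in 2 of 18. The cause of lost calls was not tested. Every change of sign was of a gene that passed in neither fit. For taVNS against PSCI, Cdkn1b (main -0.001) was 0.018 with DESeq2 size factors, 0.004 with no filter, 0.018 with DESeq2, 0.008 with only the 2 groups, 0.048 without both named libraries and -0.082 to 0.136 without 1 library. Without 1 library, Ccnd3 was -0.037 to 0.201 and Cdkn1c -0.095 to 0.605. For PSCI against control, Ccnd2 was -0.417 to 0.009, Ccnd3 -0.166 to 0.052 and Cdkn1c -0.433 to 0.058 without 1 library. For taVNS against control without 1 library, Ccnd3 was -0.095 to 0.142, Cdk4 -0.074 to 0.000, Cdk6 -0.105 to 0.346, Cdkn1c -0.359 to 0.439 and Rb1 -0.141 to 0.089. Without both named libraries Ccnd3 was -0.105, Cdk6 -0.027, Cdkn1c -0.37 and Rb1 0.078 there, and Rb1 was 0.020 and 0.018 on log2 RPKM plus 0.1 and plus 1. Of 1008 recomputed values, 804 kept direction and side of the threshold, 160 lost a call, 12 gained one and 32 changed sign. With DESeq2 size factors the median log2 fold change of all genes lay between -0.0152 and 0.0187. Depth limits Cdkn2a, with 2 to 5 counts per group, and Cdkn1a in taVNS rats, with 43 to 59 counts per library.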

Other observations

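Some p53 targets that did not pass the test had a PSCI order unlike that of Ccnd1, with replicate 2 lowest. Those named here were picked after their values were seen. Other such targets differed, and Bbc3 had 6.88, 5.48 and 4.70 CPM in PSCI replicates 1, 2 and 3. The share of targets, or of all genes, with replicate 2 lowest was not counted. Ccng1, a cyclin-like p53 target, had 182.6, 232.3 and 152.8 CPM in taVNS rats, 292.1, 184.9 and 270.0 CPM in PSCI rats and 249.0, 205.1 and 204.2 CPM in control rats (edgeR adjusted p = 0.293 for taVNS against PSCI and 0.626 for PSCI against control). Plk2, a polo-like kinase active at synapses, had 144.5, 189.5 and 134.9 CPM in taVNS rats, 229.2, 120.8 and 311.7 CPM in PSCI rats and 186.2, 157.3 and 158.1 CPM in control rats (edgeR adjusted p = 0.364 and 0.438). Tigar, a fructose bisphosphatase, had 46.0, 66.2 and 42.7 CPM in taVNS rats, 73.2, 36.6 and 75.3 CPM in PSCI rats and 50.5 to 56.0 CPM in control rats. The neuronal marker sums of the same PSCI libraries were 9035, 4919 and 8017 CPM, although Gad1 of that list was highest in replicate 2 (208.6 CPM). This sum and Ccng1 were highest in replicate 1, but Plk2 and Tigar were highest in replicate 3. The part of neurons in these levels was not tested. Pmaip1 (Noxa), a p53 target that promotes apoptosis, had 7, 3 and 4 counts in total in the taVNS, PSCI and control groups and was too low to test.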
